A study of Mus musculus with 18 samples.

Results

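CD4+ T cells that lack the PHD oxygen sensors were cultured with a low dose of TGF-b, 0.2 ng/ml, or with none. The comparison rests on 4 of the 18 libraries of the series, the 2 labelled tKO at 0.2 ng/ml and the 2 labelled tKO at 0 ng/ml, chosen by those labels alone. Naive splenic CD4+ T cells of C57BL/6 mice were isolated by FACS, stimulated through CD3 and CD28 with antibodies, and collected for RNA on day 4. The tKO cells carried Egln1 fl/fl, Egln2 fl/fl, Egln3 fl/fl and Cd4Cre, and the WT cells carried Cd4Cre alone, so that both doses of the comparison share the 3 floxed genes and the Cre. Cd4Cre is active in T cells from their development in the thymus on, and it deletes in CD8 T cells as well. In the same experiment, 2 tKO libraries at 2 ng/ml and WT libraries at 0.2, 0 and 2 ng/ml (2 each) make up 12 libraries with 1 table. The sources used here give neither the age of the mice nor whether cells of several mice were pooled. The labels do not say that libraries with different numbers came from separate mice. At every dose tKO replicate 1 had Y-linked transcripts and Xist at or near 0. By contrast, tKO replicate 2 had Xist, with Y-linked transcripts at or near 0. The cells of these replicates thus came from different mice. Each tKO group thus held 1 library of either kind, whereas the WT libraries all had Xist and Y-linked transcripts at or near 0. For WT libraries the labels do not tell the mice apart. The spread between WT libraries may be technical.

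TGF-b is a secreted cytokine that binds a pair of receptor kinases and acts through the SMAD transcription factors. In activated CD4+ T cells it supports the regulatory T cell program led by FOXP3, shares in the induction of the Th17 program, and restrains the Th1 and Th2 programs led by T-bet and GATA3. PHD1, PHD2 and PHD3, the products of Egln2, Egln1 and Egln3, are enzymes that use oxygen to hydroxylate HIF proteins and so mark them for degradation. Cells without them keep HIF proteins in the presence of oxygen and hold glycolytic and other HIF target genes at high levels. How a low dose of TGF-b changed the transcripts of such cells, and whether the change differed from that in WT cells, are the questions of the comparison.

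In the tKO cells at the low dose Foxp3, the TGF-b target genes Ctsw and Ldlrad4, and the Th17-associated genes Il17f, Ccr6, Rora and Ccl20 rose, and the Th2 genes Il24, Il4, Il13, Il5, Gata3 and Nfil3 fell. The calls of Foxp3, Ctsw, Ldlrad4 and Il24 held in every alternative of the test described below. Each of the other calls was lost in at least 1 alternative. Of the 10354 genes tested, 257 passed at an adjusted p under 0.05, or 2.48%. The test was limma's moderated test on log2(FPKM + 1) with Benjamini-Hochberg adjustment, and it is the source of every adjusted p below. FPKM counts fragments per kilobase of a transcript, relative to all mapped fragments of a library, so levels of different genes can be compared. Of the 257 genes, 176 rose (1.7% of all tested) and 81 fell (0.782%), and 131 of the rises and 63 of the falls were of at least 1 on the log2 scale. In all 257 the libraries of the 2 doses did not overlap, as was also the case for 37.3% of all genes tested. The median log2 change over all genes was 0.017, and 1612 genes had an unadjusted p under 0.05. A log2 change above 0 was seen in 5369 of the 10354 genes. The gene lists named below were drawn up with earlier results of these data known, so their counts describe them and are set beside these shares of all genes.

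T cell markers were abundant in the 4 libraries. The summed level of 8 T cell markers was 3153 and 3326 FPKM in tKO cells at 0.2 ng/ml and 2451 and 2635 FPKM in tKO cells at 0 ng/ml, and none of the 8 passed the test. Summed B cell markers were lower at the low dose, at 26.7 and 16.0 FPKM against 87.1 and 40.8 FPKM at 0 ng/ml, with 0 of 5 tested members past the threshold; their part in the results below was not tested. The myeloid markers Lyz2, Fcgr3 and S100a8 and the dendritic cell markers Itgax and Flt3 were listed at 0 in all 4 libraries. The list of dendritic cell and MHC class II genes still summed to 1325 and 1433 FPKM at 0.2 ng/ml and 1340 and 1124 FPKM at 0 ng/ml. Which cells held these transcripts was not tested. Erythroid markers summed to 69.6 and 14.4 FPKM against 36.3 and 9.23 FPKM in the same order of doses. CD8 T cell markers summed to 14.0 and 13.4 FPKM against 7.49 and 12.6 FPKM. Since the samples are bulk, fewer cells of a type and less RNA per cell cannot be told apart. Replicate 2 of tKO at 0.2 ng/ml stood apart from the other libraries. Entries without a gene symbol took 2.51% of its FPKM sum, against 4.62% to 9.55% in the others, and its relative number of reads per FPKM was the lowest, the other 11 libraries having 1.48 to 2.27 times as many. Without this library, 163 genes passed in place of 257, and list counts below that differ without it are also given without it. Without replicate 1 of tKO at 0.2 ng/ml 708 genes passed, and without replicate 1 or replicate 2 of tKO at 0 ng/ml 108 or 121 passed; without replicate 1 or without replicate 2 of tKO at 2 ng/ml, which enter the estimate of the spread, 163 passed each time. Calls of single genes are marked below where they were lost in some of the 12 fits that leave out 1 library each; 31 of the 71 called genes named by rule were kept in all of them. A pseudocount of 0.1 in place of 1 ended the calls of Il4, Il13, Il5, Ajuba, Edn1, Il12a, Il2, Cd70, Skil, Capg, Stat4, Serpinb9, Cox4i2, Rcor2 and the joint entry of Gp49a and Lilrb4. Foxp3, Ctsw, Ldlrad4, Il24, Igfbp7, Aqp3, Nupr1, Tnnt2, Tmeff1, Pde1a, Rnd3 and Tnfrsf8 passed in every alternative in which they were tested.

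Egln1 had 122 and 95.6 FPKM in tKO cells at 0.2 ng/ml and 112 and 92.8 FPKM in tKO cells at 0 ng/ml. A gene-level FPKM sums all exons, the floxed ones with the rest, so a transcript without the floxed part can still be counted, and these levels do not check the deletion. Egln3, itself a HIF target gene, had 136 and 111 FPKM at 0.2 ng/ml and 140.2 and 111 FPKM at 0 ng/ml in tKO cells, against 5.68 and 7.84 FPKM and 18.7 and 14.0 FPKM at the same doses in WT cells. The tKO libraries were thus above every WT library for this gene, at either dose.

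The regulatory T cell list had 26 tested members, of which 3 rose and 1 fell (2 and 1 without replicate 2 of tKO at 0.2 ng/ml), and its median log2 change was 0.42. Foxp3, at a deposited locus of chromosome X from 7134467 to 7182546 (mm9), encodes the transcription factor that defines regulatory T cells. It had 40.2 and 30.9 FPKM in tKO cells at 0.2 ng/ml and 1.99 and 3.77 FPKM in tKO cells at 0 ng/ml. The low dose lay far above no dose in both libraries, a log2 change of 3.26 ± 0.28 (fold changes here and below are given with their SE from the fit; adjusted p = 7.03e-05). Nt5e encodes CD73, the surface enzyme that makes adenosine from AMP. It had 141 and 48.9 FPKM at 0.2 ng/ml and 22.4 and 19.4 FPKM at 0 ng/ml in tKO cells, a log2 change of 1.95 ± 0.34 (adjusted p = 0.00799), and the 2 treated libraries differed from each other more than the untreated ones did. The call was lost without replicate 2 of tKO at 0 ng/ml. Capg, an actin-capping protein, had 1469 and 1345 FPKM at 0.2 ng/ml and 747 and 909 FPKM at 0 ng/ml (log2 change 0.77 ± 0.19, adjusted p = 0.0496), a call lost when any 1 of the 12 libraries was left out. Il12a, which encodes the p35 chain shared by IL-12 and IL-35, was the member that fell, with 0 and 1.39 FPKM at 0.2 ng/ml and 6.17 and 22.2 FPKM at 0 ng/ml (log2 change -3.06 ± 0.61, adjusted p = 0.0195). Its call was lost without replicate 1 of tKO at 0.2 ng/ml or replicate 2 of tKO at 0 ng/ml.

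The starts of 3 genes that moved in opposite directions are shown, Foxp3 among the rises and the neighbouring cytokine genes Il4 and Il13 among the falls. Each sequence runs from 250 bases before to 50 bases after the annotated start in RefSeq on GRCm38.p6, read 5′ to 3′ along the gene, and covers 300 bases; for Foxp3 and Il4, which have 2 windows each, the first is given. Capitals mark the letters CAGAC or their reverse complement GTCTG, the short element that SMAD3 and SMAD4 bind, searched on both strands.
Foxp3, chrX:7579426-7579725, plus strand: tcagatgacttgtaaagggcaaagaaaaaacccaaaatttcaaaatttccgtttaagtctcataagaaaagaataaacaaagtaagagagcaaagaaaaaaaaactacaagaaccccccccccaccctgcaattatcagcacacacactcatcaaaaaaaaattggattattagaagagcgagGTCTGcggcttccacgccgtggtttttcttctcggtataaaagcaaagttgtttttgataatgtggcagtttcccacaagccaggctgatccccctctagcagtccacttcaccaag
Il4, chr11:53617289-53617588, minus strand: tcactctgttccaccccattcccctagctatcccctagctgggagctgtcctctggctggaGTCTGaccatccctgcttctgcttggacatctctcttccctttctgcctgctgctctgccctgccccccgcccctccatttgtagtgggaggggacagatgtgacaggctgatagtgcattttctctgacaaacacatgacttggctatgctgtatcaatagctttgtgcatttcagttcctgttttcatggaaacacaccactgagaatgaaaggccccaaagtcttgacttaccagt
Il13, chr11:53634653-53634952, minus strand: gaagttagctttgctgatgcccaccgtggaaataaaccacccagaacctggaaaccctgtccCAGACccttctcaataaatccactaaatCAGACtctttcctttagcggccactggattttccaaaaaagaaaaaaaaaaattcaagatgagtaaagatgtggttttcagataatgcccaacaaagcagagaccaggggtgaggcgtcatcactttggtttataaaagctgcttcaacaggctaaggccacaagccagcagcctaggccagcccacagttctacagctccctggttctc
The Foxp3 and Il4 windows hold 1 match each and the Il13 window holds 2. Of the 32851 promoter windows in the RefSeq table, 49.6% hold at least 1 match, so the element is present in genes of both directions and in about as many windows as lack it. Windows were found for 76.7% of the 176 genes that rose, 82.7% of the 81 that fell and 78.5% of all genes tested, and 45.4%, 48.9% and 47% of these windows hold a match. Too many genes lack a window for a check of the element against direction, which is void. These shares are given as a description.

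Genes listed as responding to TGF-b rose in part. In the list of TGF-b response genes, 5 of 13 tested members rose and 0 fell (3 and 0 without replicate 2 of tKO at 0.2 ng/ml), with a median log2 change of 0.85, and 11 of the 13 had an unadjusted p under 0.05. Ctsw encodes cathepsin W, a protease of cytotoxic lymphocytes. It had 101 and 97.5 FPKM in tKO cells at 0.2 ng/ml and 9.63 and 12.1 FPKM in tKO cells at 0 ng/ml, a log2 change of 3.09 ± 0.19 (adjusted p = 5.07e-06), with replicates close together at both doses. Ldlrad4 encodes a membrane protein that restrains SMAD2 and SMAD3 signalling, and it had 17.6 and 14.0 FPKM at 0.2 ng/ml against 1.92 and 1.01 FPKM at 0 ng/ml (log2 change 2.79 ± 0.24, adjusted p = 7.03e-05). Skil, which encodes the SMAD corepressor SnoN, had 22.1 and 18.8 FPKM against 9.25 and 9.48 FPKM in the same order of doses (log2 change 1.04 ± 0.25, adjusted p = 0.049). Its call was lost in 10 of the 12 fits that leave out 1 library.

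Id1 and Id3 encode inhibitors of E-protein transcription factors. Id1 had 15.0 and 20.5 FPKM at 0.2 ng/ml and 5.49 and 6.64 FPKM at 0 ng/ml in tKO cells (log2 change 1.40 ± 0.28, adjusted p = 0.0213; lost in 3 of 12 fits). Id3 had 83.8 and 80.1 FPKM at 0.2 ng/ml and 40.0 and 43.1 FPKM at 0 ng/ml (log2 change 0.97 ± 0.19, adjusted p = 0.0164), a call lost without replicate 1 or without replicate 2 of tKO at 0 ng/ml. In WT cells Id3 went the other way, with 162 and 131 FPKM at 0.2 ng/ml and 230 and 218 FPKM at 0 ng/ml. That log2 difference of -0.62 ± 0.19 did not pass (adjusted p = 0.146). The difference between genotypes passed, at 1.58 ± 0.26 (adjusted p = 0.028, lost in 8 of 12 fits). Id1 did not pass in WT cells (log2 difference 0.31 ± 0.28, adjusted p = 0.771). Smad7, the inhibitory SMAD, had 4.45 and 5.60 FPKM at 0.2 ng/ml and 1.95 and 1.63 FPKM at 0 ng/ml; the groups did not overlap, but the log2 difference of 1.11 ± 0.28 did not pass (adjusted p = 0.0559). It lay just under the threshold with the replicate number as a block (adjusted p = 0.0461), with a pseudocount of 0.1 (0.0419) and without replicate 1 of tKO at 0.2 ng/ml (0.0464), and up to 0.391 in the other alternatives. Itgae, which encodes the CD103 integrin chain, had 1.52 and 1.57 FPKM at 0.2 ng/ml and 0.970 and 0.0101 FPKM at 0 ng/ml (log2 difference 0.85 ± 0.36, adjusted p = 0.273). In the list of SMAD genes and feedback inhibitors, 2 of 15 tested members rose, Ldlrad4 and Skil (1 without replicate 2 of tKO at 0.2 ng/ml). None of the 10 tested TGF-b receptors, ligands and presenting proteins passed. At the share of all genes called, fewer than 1 call would fall on 10 genes, so this count does not set the list apart. All 10 had log2 differences above 0, beside 5369 of all 10354 genes, with a median of 0.67 and 4 unadjusted p-values under 0.05.

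**Figure D1:**
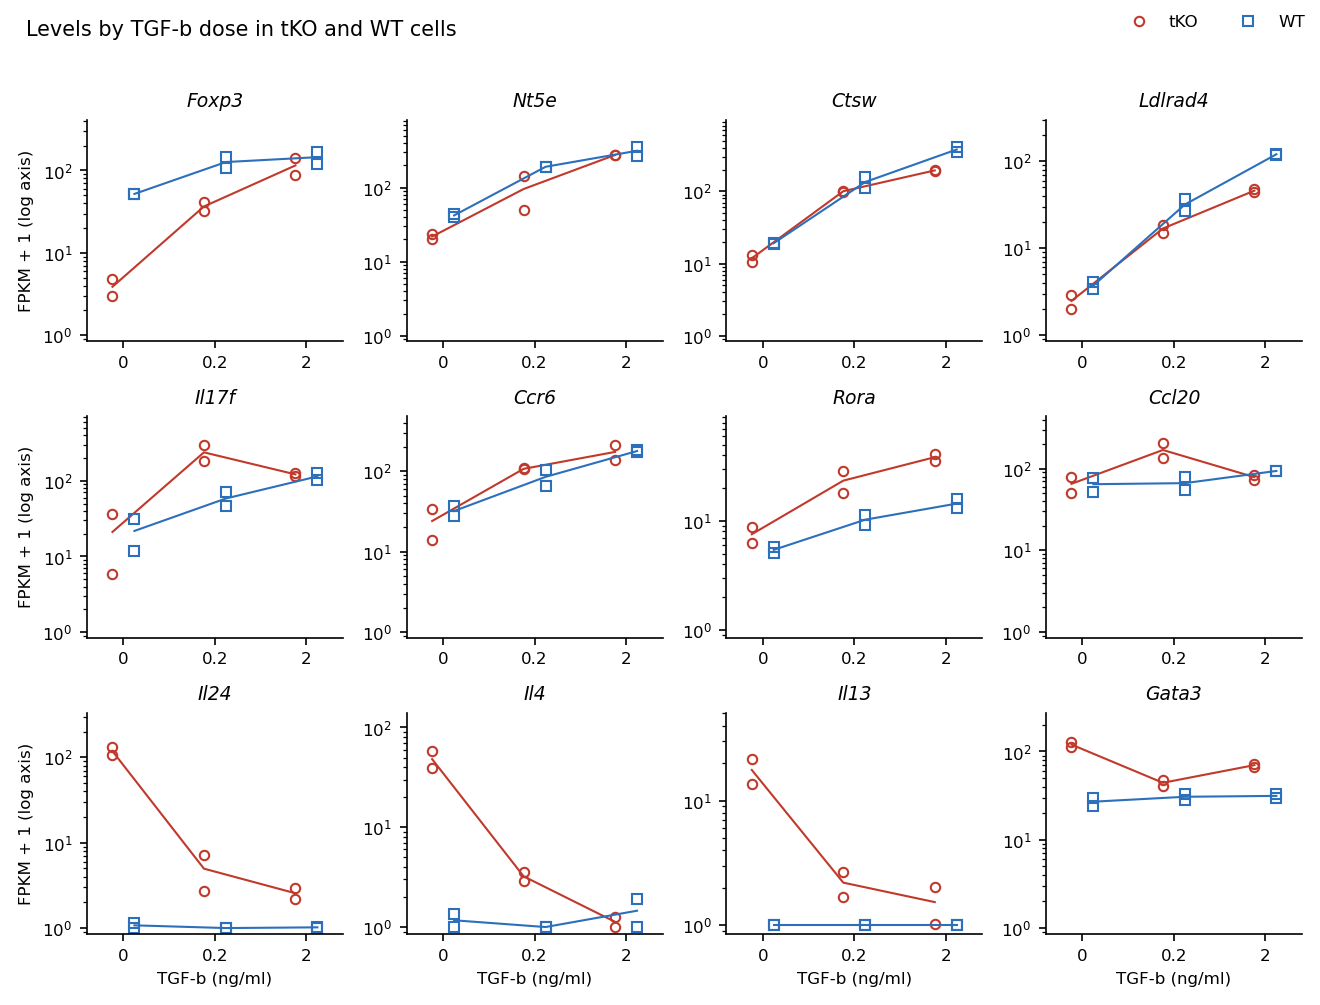
Levels of 12 genes, as FPKM + 1 on a log axis, against the TGF-b dose of 0, 0.2 and 2 ng/ml; each point is 1 library, tKO as circles on the left of each dose and WT as squares on the right, and lines join the arithmetic means of a genotype. In tKO cells Foxp3, Ctsw and Ldlrad4 step up at 0.2 ng/ml and again at 2 ng/ml, while Il24, Il4 and Il13 are high at 0 ng/ml and are low at both doses of TGF-b.

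The Th17 list had 10 tested members, of which 4 rose and 0 fell (3 and 0 without replicate 2 of tKO at 0.2 ng/ml), and its median log2 change was 1.25. Il17f, on chromosome 1 at 20767230 to 20774351 (mm9), encodes a Th17 cytokine that attracts neutrophils. It had 180.0 and 291 FPKM in tKO cells at 0.2 ng/ml and 4.88 and 35.3 FPKM in tKO cells at 0 ng/ml, and the log2 change of 3.98 ± 0.63 was the largest rise among the genes named by the rule (adjusted p = 0.00428). The treated libraries were both above 100 FPKM, and in fold terms the untreated libraries differed from each other by more than the treated ones. Ccr6, the chemokine receptor of Th17 cells, had 105 and 108 FPKM at 0.2 ng/ml and 13.1 and 33.0 FPKM at 0 ng/ml (log2 change 2.29 ± 0.35, adjusted p = 0.00307). Ccl20, the ligand of that receptor, had 133 and 205 FPKM at 0.2 ng/ml and 50.1 and 78.6 FPKM at 0 ng/ml (log2 change 1.38 ± 0.28, adjusted p = 0.0196). Its call was lost without replicate 2 of tKO at 0.2 ng/ml or replicate 1 of tKO at 0 ng/ml.

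Rora, a nuclear receptor that takes part in directing the Th17 program, had 28.0 and 16.9 FPKM at 0.2 ng/ml and 7.80 and 5.30 FPKM at 0 ng/ml (log2 change 1.61 ± 0.28, adjusted p = 0.00738), a call lost without replicate 2 of tKO at 0 ng/ml. Il17a, the best known Th17 cytokine, was below the mean of 1 FPKM needed for a test, with 0.45 and 2.02 FPKM at 0.2 ng/ml and 0 FPKM in both libraries at 0 ng/ml.

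The Th2 list had 13 tested members, of which 6 fell and 1 rose, with the same counts without replicate 2 of tKO at 0.2 ng/ml. Its median log2 change was -1.26, against 0.017 for all genes. Il24 encodes a cytokine of the IL-10 family made by Th2 cells. It had 1.71 and 6.22 FPKM in tKO cells at 0.2 ng/ml and 104 and 129.5 FPKM in tKO cells at 0 ng/ml, and the log2 change of -4.73 ± 0.41 (adjusted p = 7.03e-05) was the largest fall among the genes named by the rule. Il4, the cytokine that drives Th2 differentiation and class switching to IgE, had 2.53 and 1.91 FPKM at 0.2 ng/ml and 37.9 and 56.4 FPKM at 0 ng/ml (log2 change -3.88 ± 0.38, adjusted p = 0.0002). Il13, which acts on epithelium and smooth muscle, had 0.697 and 1.70 FPKM against 12.5 and 20.7 FPKM (log2 change -3.00 ± 0.41, adjusted p = 0.00162). Il5, the eosinophil cytokine, had 4.29 and 16.5 FPKM at 0.2 ng/ml and 62.4 and 48.9 FPKM at 0 ng/ml (log2 change -2.55 ± 0.58, adjusted p = 0.0376). The calls of Il24, Il4 and Il13 were kept whichever of the 12 libraries was left out, and that of Il5 was lost in 9 of the 12 fits. With a pseudocount of 0.1, Il24 passed, while Il4, Il13 and Il5 did not (adjusted p = 0.0826, 0.148 and 0.34).

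The 3 cytokine genes are neighbours on chromosome 11, with Il4 at 53425963 to 53432167, Il13 at 53444825 to 53448204 and Il5 at 53533594 to 53538608 (mm9). Rad50, a DNA repair gene that lies between Il13 and Il5 at 53463021 to 53520824, is named here after its values were seen. It had 15.2 and 13.8 FPKM at 0.2 ng/ml and 29.0 and 19.5 FPKM at 0 ng/ml and did not pass (log2 difference -0.68 ± 0.24, adjusted p = 0.182).

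Transcription factors of the Th2 list moved in both directions. Gata3, the lead factor of the Th2 program, had 40.1 and 46.3 FPKM in tKO cells at 0.2 ng/ml and 126 and 112 FPKM in tKO cells at 0 ng/ml (log2 change -1.44 ± 0.18, adjusted p = 0.000988). Nfil3, a basic leucine zipper repressor, had 33.4 and 26.9 FPKM against 104 and 90.1 FPKM in the same order of doses (log2 change -1.66 ± 0.21, adjusted p = 0.000988). For both, each treated library lay well under each untreated one. Maf, a factor that promotes Il4 in Th2 cells and also serves in Th17, follicular helper and regulatory T cells, went the other way, with 22 and 30.1 FPKM at 0.2 ng/ml and 1.70 and 4.33 FPKM at 0 ng/ml (log2 change 2.82 ± 0.33, adjusted p = 0.00058).

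**Figure D2:**
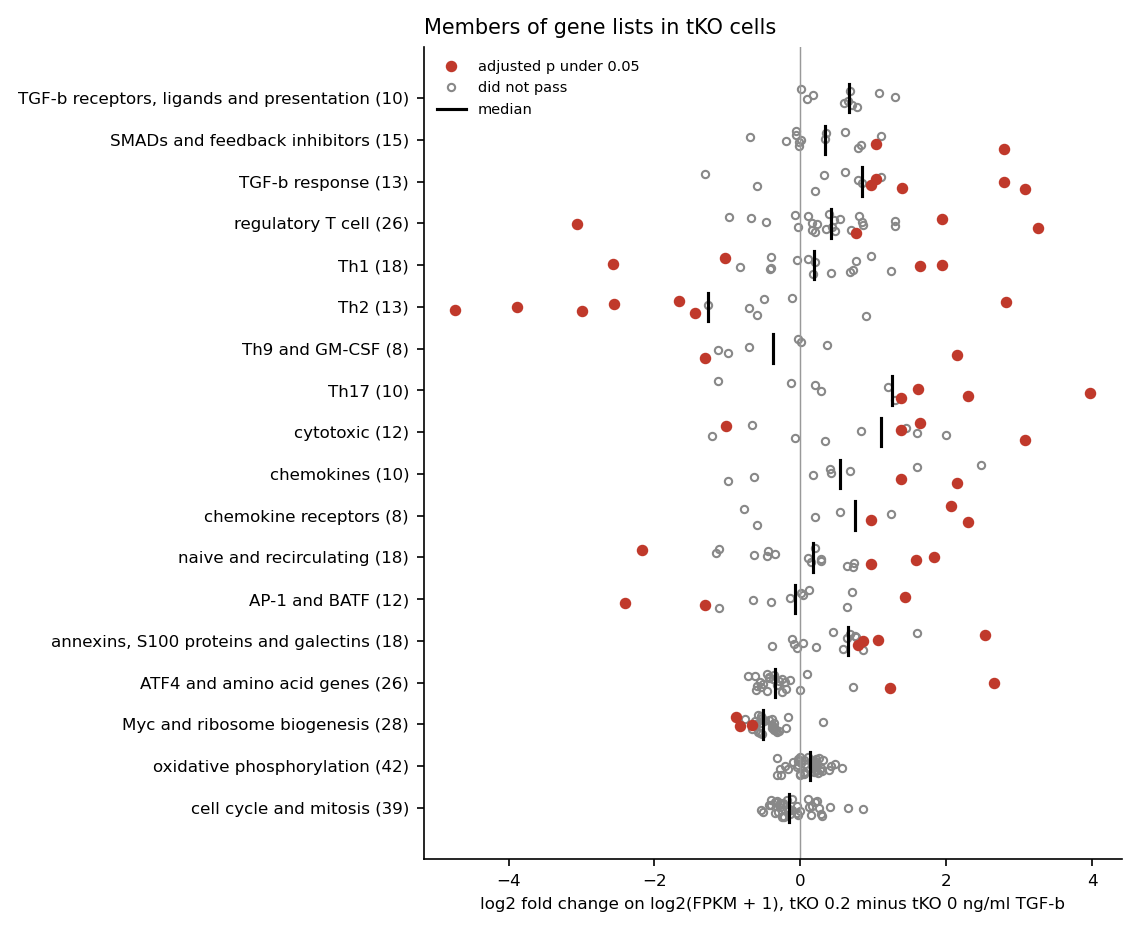
Log2 change of FPKM + 1 in tKO cells, 0.2 minus 0 ng/ml TGF-b, for the members of 18 gene lists; each point is 1 gene, filled where the adjusted p is under 0.05, and the black bar is the median of the tested members. The Th2 median lies at -1.26 and the Th17 median at 1.25, while the oxidative phosphorylation median lies close to 0, at 0.13.

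Th1 genes did not move together. Of 18 tested members, 2 rose and 2 fell, with a median log2 change of 0.19, and without replicate 2 of tKO at 0.2 ng/ml 1 rose and 0 fell. Tbx21, which encodes T-bet, had 38.0 and 33.4 FPKM in tKO cells at 0.2 ng/ml and 61.2 and 36.9 FPKM in tKO cells at 0 ng/ml (log2 difference -0.41 ± 0.45, adjusted p = 0.73). Ifng, the lead Th1 cytokine, had 11.7 and 28.1 FPKM against 18.8 and 32.0 FPKM, and the groups overlapped (log2 difference -0.41 ± 0.77, adjusted p = 0.853). The risers were the 2 chains of the IL-18 receptor, whose genes lie next to each other on chromosome 1. Il18rap had 5.38 and 6.47 FPKM at 0.2 ng/ml and 0.861 and 0.742 FPKM at 0 ng/ml (log2 change 1.94 ± 0.29, adjusted p = 0.003). Il18r1 had 8.33 and 12.7 FPKM against 1.51 and 4.25 FPKM (log2 change 1.64 ± 0.33, adjusted p = 0.0213; lost in 2 of 12 fits). The genes that fell were Stat4, the transducer of IL-12 signals, and Il2, the T cell growth factor. Il2 had 1.66 and 3.31 FPKM at 0.2 ng/ml and 10.7 and 33.7 FPKM at 0 ng/ml (log2 change -2.57 ± 0.55, adjusted p = 0.0273), and Stat4 fell by 1.03 on the log2 scale (adjusted p = 0.0466). Both calls depended on single libraries, with 5 and 9 of the 12 fits losing them.

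Il9, the lead cytokine of Th9 cells, was abundant in tKO cells at both doses, with 304 and 820.1 FPKM at 0.2 ng/ml and 207 and 717 FPKM at 0 ng/ml. The 2 libraries of a dose differed from each other by more than the doses did (log2 difference 0.37 ± 0.56, adjusted p = 0.811). In the list of Th9 and GM-CSF genes, 1 of 8 tested members rose and 1 fell (0 and 1 without replicate 2 of tKO at 0.2 ng/ml). The riser was Ccl1, a chemokine made by activated T cells, with 394 and 601 FPKM at 0.2 ng/ml and 85.5 and 139 FPKM at 0 ng/ml (log2 change 2.15 ± 0.41, adjusted p = 0.0148; lost in 2 of 12 fits). Batf, an AP-1 factor needed for Th9 and Th17 cells, fell, with 50 and 76.4 FPKM against 127 and 187 FPKM (log2 change -1.30 ± 0.28, adjusted p = 0.0267; lost in 2 of 12 fits). Its relative Batf3 had 7.95 and 20.1 FPKM at 0.2 ng/ml and 64.4 and 79.1 FPKM at 0 ng/ml (log2 change -2.40 ± 0.36, adjusted p = 0.00303). Jun, a common partner of the BATF proteins, rose by 1.44 ± 0.33 on the log2 scale (adjusted p = 0.0363; lost in 8 of 12 fits). Of the 12 tested AP-1 and BATF genes, these 3 were the ones that passed. Bcl6, the lead factor of follicular helper cells, was near 1 FPKM or below in all 4 libraries (log2 difference 0.50 ± 0.40, adjusted p = 0.617), and of 11 follicular helper genes only Btla, an inhibitory receptor, passed (log2 change -0.86 ± 0.19, adjusted p = 0.0282; lost in 7 of 12 fits). Without replicate 2 of tKO at 0.2 ng/ml 1 of the 11 rose and 0 fell.

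Among 12 tested genes of killing, 3 rose and 1 fell, and without replicate 2 of tKO at 0.2 ng/ml 1 rose and 0 fell. Besides Ctsw these were Nkg7, a granule membrane protein, which rose by 1.39 ± 0.30 (adjusted p = 0.0273), Tnfsf10, which encodes the death ligand TRAIL and rose by 1.64 ± 0.31 (adjusted p = 0.0159), and Serpinb9, an inhibitor of granzyme B, which fell by 1.02 on the log2 scale (adjusted p = 0.0436). These 3 calls were lost in 5, 2 and 10 of the 12 fits. Gzmb, which encodes granzyme B, had 124 and 151 FPKM at 0.2 ng/ml and 347 and 289.9 FPKM at 0 ng/ml in tKO cells. The groups did not overlap, but the difference of -1.21 ± 0.55 did not pass (adjusted p = 0.314).

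Genes of migration and of naive and recirculating T cells rose in part. Of 8 tested chemokine receptors 3 rose and 0 fell, also without replicate 2 of tKO at 0.2 ng/ml, and of 18 naive and recirculating genes 3 rose and 1 fell. Klf2, the factor that keeps T cells recirculating, had 28.1 and 15.3 FPKM in tKO cells at 0.2 ng/ml and 5.61 and 4.63 FPKM in tKO cells at 0 ng/ml (log2 change 1.84 ± 0.24, adjusted p = 0.000997). Ccr7, the receptor for entry into lymph nodes, had 1055 and 829 FPKM against 569.7 and 397 FPKM (log2 change 0.97 ± 0.21, adjusted p = 0.0262; lost in 2 of 12 fits). Cxcr6, a receptor of tissue-homing T cells, had 14.5 and 4.26 FPKM at 0.2 ng/ml and 0.915 and 1.45 FPKM at 0 ng/ml (log2 change 2.06 ± 0.43, adjusted p = 0.0228; lost in 5 of 12 fits). Igfbp4, an insulin-like growth factor binding protein, had 106 and 88.9 FPKM against 35.5 and 28.0 FPKM (log2 change 1.59 ± 0.18, adjusted p = 0.000522). Satb1, a chromatin organizer of T cells, was the member that fell, with 32.9 and 16.8 FPKM at 0.2 ng/ml and 131 and 92.0 FPKM at 0 ng/ml (log2 change -2.17 ± 0.30, adjusted p = 0.00176). Of 15 tested TNF receptor family genes 2 fell and 0 rose (2 and 1 without replicate 2 of tKO at 0.2 ng/ml), and those that fell are a receptor and its ligand. Tnfrsf8, which encodes CD30, had 0.150 and 0.0886 FPKM at 0.2 ng/ml and 5.60 and 8.54 FPKM at 0 ng/ml (log2 change -2.83 ± 0.40, adjusted p = 0.00229), and Tnfsf8, the CD30 ligand, had 72.0 and 71.0 FPKM against 206 and 171 FPKM (log2 change -1.38 ± 0.24, adjusted p = 0.00811; lost in 1 of 12 fits).

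Annexins, S100 proteins and galectins rose in 4 of 18 tested members and fell in 0 (3 and 0 without replicate 2 of tKO at 0.2 ng/ml), with a median log2 change of 0.66. Lgals3, which encodes the carbohydrate-binding galectin-3, had 228 and 232 FPKM at 0.2 ng/ml and 96.2 and 125 FPKM at 0 ng/ml (log2 change 1.06 ± 0.17, adjusted p = 0.00544; lost in 1 of 12 fits). Anxa5, a calcium-dependent lipid-binding protein, rose by 0.79 ± 0.15 (adjusted p = 0.016; lost in 2 of 12 fits), and Lgals1, which encodes galectin-1, by 0.86 ± 0.19 (adjusted p = 0.0323; lost in 9 of 12 fits). S100a4, a calcium-binding protein of motile cells, had 7.15 and 9.47 FPKM at 0.2 ng/ml and 0 and 1.54 FPKM at 0 ng/ml (log2 change 2.53 ± 0.37, adjusted p = 0.00243); with 1 untreated library listed at 0, the size of its change is uncertain.

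The genes that passed on the list of Myc and ribosome biogenesis genes were all lower. On that list 1 of 28 tested members was above 0, beside 5369 of all 10354 genes. Of all genes tested, 0.782% were called lower. Of 28 tested Myc and ribosome biogenesis genes, 3 fell and 0 rose (2 and 0 without replicate 2 of tKO at 0.2 ng/ml), the median log2 change was -0.51, and 15 had an unadjusted p under 0.05. Nop56, a protein of the box C/D ribonucleoproteins that modify ribosomal RNA, had 188 and 195 FPKM at 0.2 ng/ml and 297 and 310.1 FPKM at 0 ng/ml (log2 change -0.66 ± 0.14, adjusted p = 0.0273). Nolc1, a nucleolar phosphoprotein, fell by 0.83 (adjusted p = 0.0196) and Srm, spermidine synthase, by 0.88 (adjusted p = 0.0424). Their calls were lost in 6, 3 and 9 of the 12 fits that leave out 1 library. Casp6, a caspase, was the only 1 of 21 tested BCL2 family and caspase genes to pass, with 32.8 and 37.4 FPKM at 0.2 ng/ml and 93.2 and 93.3 FPKM at 0 ng/ml (log2 change -1.39 ± 0.21, adjusted p = 0.00303).

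The other genes with the largest rises were of mixed function. Nupr1, a stress-induced chromatin protein, had 149 and 170.4 FPKM in tKO cells at 0.2 ng/ml and 17.1 and 34.6 FPKM in tKO cells at 0 ng/ml (log2 change 2.66 ± 0.34, adjusted p = 0.00101), and it was 1 of 2 risers, with Cebpb (a call lost without replicate 1 or without replicate 2 of tKO at 0 ng/ml), among 26 tested ATF4 and amino acid genes. The ATF4 and amino acid list leaned the other way, with a median log2 change of -0.34. On it 5 of the 26 members were above 0, beside 5369 of all 10354 genes. Aqp3, a water and glycerol channel, had 34.4 and 23.3 FPKM against 3.10 and 4.29 FPKM (log2 change 2.66 ± 0.28, adjusted p = 0.000309). Tnnt2, cardiac troponin T, had 7.49 and 6.97 FPKM at 0.2 ng/ml and 0.122 and 0.128 FPKM at 0 ng/ml (log2 change 2.87 ± 0.39, adjusted p = 0.00154). Tmeff1, a transmembrane protein, rose by 2.66 ± 0.32 and Olfm2, a secreted olfactomedin, by 2.65 ± 0.36 (adjusted p = 0.000613 and 0.00139), each to between 4.39 and 7.99 FPKM at 0.2 ng/ml, against 0.0267 to 0.203 FPKM at 0 ng/ml. AA467197, also called Nmes1 in the RefSeq table, and 5430421N21Rik, an older symbol that the table gives to both of the keratin genes Krt83 and Krt86, rose by 2.75 ± 0.48 and 2.85 ± 0.49 (adjusted p = 0.00799 for each). In AA467197 the treated libraries, at 75.2 and 236 FPKM, differed widely from each other, and the call was lost without the higher of them or without replicate 1 of tKO at 0 ng/ml, as was that of 5430421N21Rik without the last of these.

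Among the largest falls, Ajuba, Rnd3, Edn1 and Nts came to near 0. Ajuba, a LIM-domain scaffold protein, had 1.44 and 0.175 FPKM in tKO cells at 0.2 ng/ml and 18.3 and 16.1 FPKM in tKO cells at 0 ng/ml (log2 change -3.42 ± 0.47, adjusted p = 0.00151). Rnd3, a small GTP-binding protein, had 0.0128 and 0.415 FPKM against 13.8 and 9.69 FPKM (log2 change -3.39 ± 0.40, adjusted p = 0.000585). Edn1, which encodes the vasoconstrictor endothelin-1, had 0.345 and 0 FPKM against 9.13 and 12.3 FPKM, and Nts, which encodes the peptide neurotensin, had 0.306 and 1.03 FPKM against 8.55 and 15.8 FPKM. Both passed (adjusted p = 0.000309 and 0.000988). With a pseudocount of 0.1 the calls of Edn1 and Ajuba were lost (adjusted p = 0.0634 and 0.0777). With values at or near 0 the size of such falls is uncertain. Pde1a, a phosphodiesterase of cyclic nucleotides, had 6.62 and 14.7 FPKM at 0.2 ng/ml and 71.6 and 93.3 FPKM at 0 ng/ml (log2 change -2.92 ± 0.35, adjusted p = 0.000613). The joint entry of Gp49a and Lilrb4, a pair of closely related immunoglobulin-like receptor genes whose reads are hard to separate, had 4.71 and 1.48 FPKM against 61.3 and 37.5 FPKM (adjusted p = 0.00583; lost in 2 of 12 fits). The small nucleolar RNAs Snord47 and Snord49a were listed at 0 in both treated libraries and at 23.3 and 24.4 FPKM and at 14.1 and 29.6 FPKM in the untreated ones. Such RNAs are short and come from introns of host genes, so a few reads give high FPKM values, and no fold is given.

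In tKO cells no gene of the oxygen-sensing core or of glycolysis passed, and 3 of 33 other HIF targets did, beside 2.48% of all genes. At that share fewer than 1 call would fall on a list of 8 or of 24 genes, so the counts of 0 do not set these lists apart. None of 8 tested genes of the oxygen-sensing core passed, and none had an unadjusted p under 0.05. Hif1a, which encodes the HIF-1 alpha subunit, had 46.8 and 24.9 FPKM at 0.2 ng/ml and 64.7 and 24.5 FPKM at 0 ng/ml, with replicates further apart than the doses (log2 difference -0.22 ± 0.38, adjusted p = 0.843). Egln1 differed by 0.08 ± 0.18, Egln2 by -0.36 ± 0.26 and Egln3 by -0.02 ± 0.23 on the log2 scale (adjusted p = 0.89, 0.557 and 0.985). None of 24 glycolysis genes passed, none had an unadjusted p under 0.05, and their log2 differences ran from -0.52 to 0.71 with a median of -0.11. Of 33 other HIF targets, Cox4i2, a cytochrome oxidase subunit isoform, and Rora rose, and Rcor2, a corepressor, fell, and the median was 0.20. Without replicate 2 of tKO at 0.2 ng/ml 1 rose and 0 fell. The calls of Cox4i2 and Rcor2 were lost in 11 of the 12 fits each. Bnip3, a mitophagy receptor, had 861 and 899 FPKM at 0.2 ng/ml and 765 and 875 FPKM at 0 ng/ml (log2 difference 0.10 ± 0.17, adjusted p = 0.826). Slc2a1, the glucose transporter GLUT1, had 189 and 151 FPKM against 182 and 184 FPKM (log2 difference -0.11 ± 0.25, adjusted p = 0.88). None of 42 oxidative phosphorylation genes, 39 cell cycle genes, 24 TCA cycle genes, 27 sterol and fatty acid synthesis genes or 31 interferon-induced and MHC class I genes passed in the tKO cells, with medians of 0.13, -0.16, -0.20, 0.16 and 0.08. Without replicate 2 of tKO at 0.2 ng/ml these medians were -0.20, -0.04, -0.13, 0.30 and 0.03, so the sign of the oxidative phosphorylation median depended on that library.

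The same contrast in WT cells, which shares no library with that in tKO cells, had 165 genes past the threshold, or 1.59% of those tested, with 95 higher (0.918%) and 70 lower (0.676%). Of the genes that rose, 39 were called in both genotypes, which is 22.2% of the tKO rises and 41.1% of the WT rises. Of the genes that fell, 6 were called in both, or 7.41% of the tKO falls and 8.57% of the WT falls. Across all 10354 genes the log2 changes of the genotypes had a Pearson correlation of 0.306, given as a description, since genes are not independent replicates. A call in 1 genotype alone does not show a difference, so the difference of the log2 changes, tKO minus WT, was tested in the same fit. It passed for 45 genes, or 0.435% of those tested, with 27 higher in tKO (0.261%) and 18 lower (0.174%), and 807 genes had an unadjusted p under 0.05.

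Ctsw, Ldlrad4, Nt5e and Foxp3 rose in both genotypes. So did Maf, Nupr1, Aqp3, Lgals3 and Cxcr6 (adjusted p in WT cells 0.00584, 0.00863, 0.012, 0.000196 and 0.0355). Serpinb9 and Snord49a were called lower in WT cells as in tKO cells (adjusted p = 0.0306 and 0.026). Except for Lgals3, the WT calls of these added genes were each lost in some of the 12 fits that leave out 1 library. Ctsw had 109 and 158 FPKM in WT cells at 0.2 ng/ml and 18.5 and 17.9 FPKM in WT cells at 0 ng/ml, a log2 change of 2.79 ± 0.19 (adjusted p = 1.83e-05), and the difference from tKO was 0.30 ± 0.27 (adjusted p = 0.906). Ldlrad4 changed by 3.09 ± 0.24 in WT cells (adjusted p = 5.06e-05) and Nt5e by 2.18 ± 0.34 (adjusted p = 0.00491; lost in 3 of 12 fits), with differences from tKO of -0.30 ± 0.35 and -0.23 ± 0.48 (adjusted p = 0.938 and 0.967). Foxp3 started from a higher level in WT cells, with 108 and 144 FPKM at 0.2 ng/ml and 51.4 and 50.5 FPKM at 0 ng/ml. Its log2 change there was 1.27 ± 0.28 (adjusted p = 0.0397; lost in 8 of 12 fits), and the difference of 1.99 ± 0.40 between tKO and WT missed the threshold (adjusted p = 0.0511). The tKO level at 0.2 ng/ml, 40.2 and 30.9 FPKM, was below the WT level at 0 ng/ml.

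Of the 18 genes with a lower change in tKO, 5 were on the Th2 list, and of the 27 with a higher one 0 were. For 3 of the 5, Il24, Il4 and Il13, WT cells were at or near 0 at both doses, so that no fall could have been measured there. Their difference restates the fall in tKO cells. Il24 had 0 and 0 FPKM in WT cells at 0.2 ng/ml and 0.152 and 0 FPKM in WT cells at 0 ng/ml. Il4 had 0 and 0 FPKM and 0.337 and 0 FPKM at the same doses. Il13 was listed at 0 in all 4 libraries. The differences in log2 change, tKO minus WT, were -4.63 ± 0.57 for Il24 (adjusted p = 0.00977), -3.67 ± 0.54 for Il4 (adjusted p = 0.0236) and -3.00 ± 0.58 for Il13 (adjusted p = 0.0449). The other 2, Gata3 and Nfil3, could have changed in either genotype. Gata3 was expressed in WT cells, with 27.4 and 31.9 FPKM at 0.2 ng/ml and 29.0 and 22.9 FPKM at 0 ng/ml, and the difference was -1.63 ± 0.26 (adjusted p = 0.0242). Nfil3 had 13.1 and 18.4 FPKM in WT cells at 0.2 ng/ml and 15.5 and 17.3 FPKM in WT cells at 0 ng/ml, and the difference was -1.59 ± 0.30 (adjusted p = 0.0393). In the 12 fits that leave out 1 library, the difference was lost in 2 for Il24, in 8 each for Il4 and Gata3, in 11 for Nfil3 and in 12 for Il13, and its adjusted p for Gata3 ran from 0.0238 to 0.105. For Gata3, both tKO libraries at 0.2 ng/ml remained above every WT library at 0 or 0.2 ng/ml. The Th17 list had 0 of 10 members past the threshold in WT cells, with a median of 0.63, but no member differed between genotypes; for Il17f the difference was 2.41 ± 0.89 (adjusted p = 0.466).

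Part of the HIF targets and of the interferon-induced genes fell in WT cells at the low dose. There 8 of 24 glycolysis genes, 6 of 33 other HIF targets and 9 of 31 interferon-induced and MHC class I genes fell. None of the members rose, and 0.676% of all genes tested were called lower in WT cells. The list medians were -0.75, -0.50 and -0.997. The difference passed for 1, 3 and 3 of the list members, all higher in tKO, beside 0.261% of all genes tested. Bnip3 had 42.9 and 37.9 FPKM in WT cells at 0.2 ng/ml and 101 and 94.8 FPKM in WT cells at 0 ng/ml, a log2 change of -1.26 ± 0.17 (adjusted p = 0.00192), and the difference from tKO was 1.37 ± 0.23 (adjusted p = 0.0289; lost in 9 of 12 fits). Ifitm3, an interferon-induced antiviral membrane protein, had 27.2 and 52.2 FPKM in tKO cells at 0.2 ng/ml and 33.3 and 40.5 FPKM in tKO cells at 0 ng/ml, so the tKO doses overlapped. In WT cells it had 7.99 and 13.3 FPKM at 0.2 ng/ml and 113 and 63.7 FPKM at 0 ng/ml, and the difference of the changes was 2.96 ± 0.50 (adjusted p = 0.028; lost in 9 of 12 fits). Slc2a1 changed by -1.05 ± 0.25 in WT cells (adjusted p = 0.0546), and its difference of 0.94 ± 0.35 did not pass (adjusted p = 0.481). For Tbx21 the change in WT cells was -3.34 ± 0.45 (adjusted p = 0.00222), with 0.497 and 0.0151 FPKM at 0.2 ng/ml and 20.7 and 6.22 FPKM at 0 ng/ml, and its difference from tKO, 2.94 ± 0.63, did not pass (adjusted p = 0.0731).

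**Figure D3:**
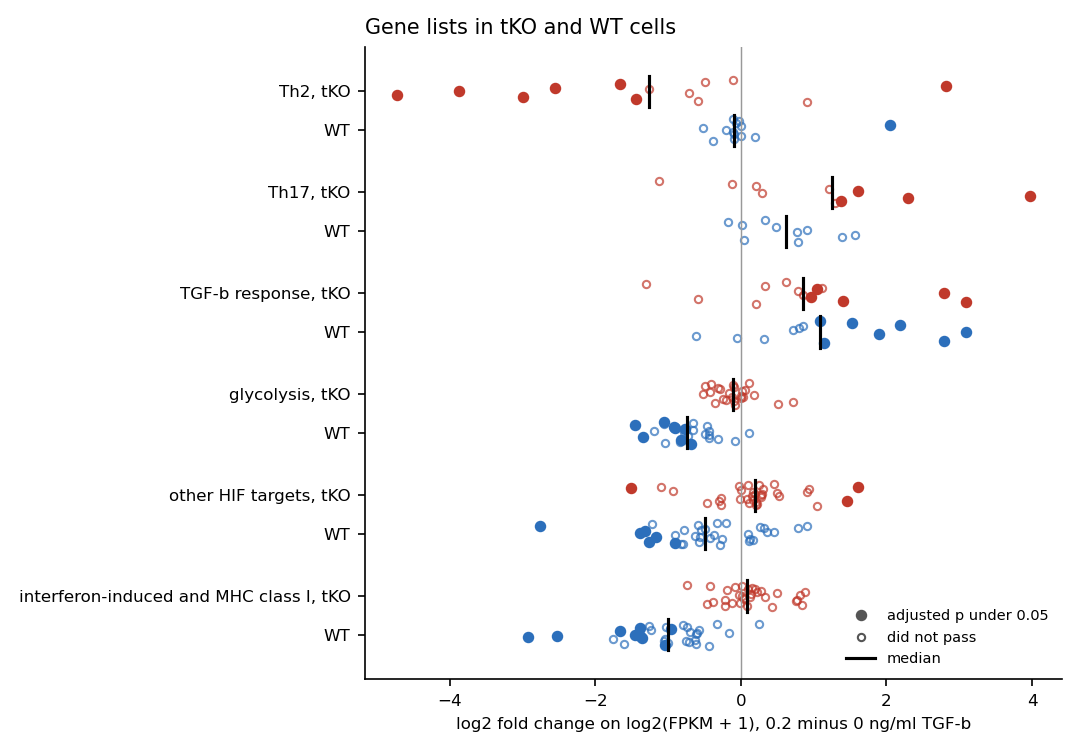
Log2 change of FPKM + 1 from 0.2 minus 0 ng/ml TGF-b for the members of 6 lists, with tKO above WT in each; points are genes, filled where the adjusted p is under 0.05, and the black bar is the median. The Th2 medians are -1.26 in tKO and -0.09 in WT, and the interferon-induced and MHC class I medians are 0.08 in tKO and -0.997 in WT. Of the Th2 list, Il24, Il4, Il13 and Il5 were at or near 0 FPKM in WT cells at both doses. No fall of these could be measured there, which limits the comparison of the Th2 medians.

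Igfbp7, a secreted protein that binds insulin-like growth factors, was the only gene called higher in tKO cells and lower in WT cells. It had 204 and 220.4 FPKM in tKO cells at 0.2 ng/ml and 52.0 and 67.3 FPKM in tKO cells at 0 ng/ml, a log2 change of 1.82 ± 0.17 (adjusted p = 0.000145). In WT cells it had 101 and 119.9 FPKM at 0.2 ng/ml and 199 and 217 FPKM at 0 ng/ml, a log2 change of -0.91 ± 0.17 (adjusted p = 0.0179; lost without any 1 of these 4 libraries). The doses did not overlap in either genotype, and the difference of 2.73 ± 0.24 (adjusted p = 0.000437) was the 1 of the 21 named differences that was kept whichever library was left out. No gene was called lower in tKO cells and higher in WT cells. Cd70, the TNF family ligand of CD27, had 23.4 and 37.6 FPKM in tKO cells at 0.2 ng/ml and 10.8 and 8.75 FPKM in tKO cells at 0 ng/ml. It had 0.593 and 1.24 FPKM in WT cells at 0.2 ng/ml and 3.37 and 5.07 FPKM in WT cells at 0 ng/ml, and the difference was 2.96 ± 0.47 (adjusted p = 0.0242; lost in 9 of 12 fits). Pfn2, an actin-binding profilin, had 21.7 and 23.2 FPKM in tKO cells at 0.2 ng/ml and 4.28 and 2.34 FPKM in tKO cells at 0 ng/ml, a log2 change of 2.48 ± 0.37 (adjusted p = 0.00302). In WT cells it had 17.0 and 7.31 FPKM at 0.2 ng/ml and 20.3 and 10.7 FPKM at 0 ng/ml, where the doses overlapped, and the difference was 2.85 ± 0.53 (adjusted p = 0.0381; lost in 10 of 12 fits). Gsn, which encodes the actin-severing protein gelsolin, fell in tKO cells to 18.8 and 6.06 FPKM at 0.2 ng/ml, against 77.1 and 51.6 FPKM at 0 ng/ml, a log2 change of -2.44 ± 0.42 (adjusted p = 0.00782), a call lost without replicate 1 of tKO at 0 ng/ml. In WT cells it had 17.5 and 13.5 FPKM at 0.2 ng/ml and 10.9 and 8.38 FPKM at 0 ng/ml, and the difference was -3.07 ± 0.59 (adjusted p = 0.0449; lost in 11 of 12 fits).

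**Figure D4:**
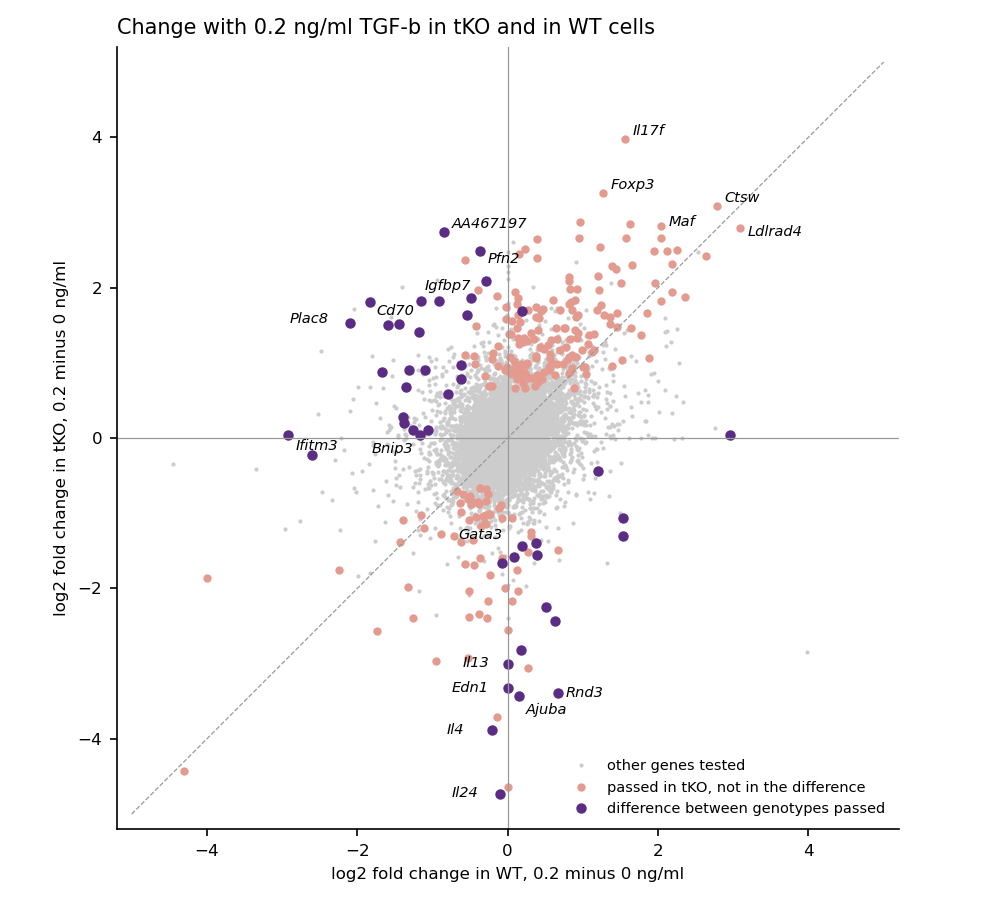
Log2 change of FPKM + 1 from 0.2 minus 0 ng/ml TGF-b in tKO cells (vertical axis) against that in WT cells (horizontal axis) for the 10354 genes. Purple points passed the test of the difference between genotypes (45 genes). Salmon points passed in tKO cells but not in that test, whether or not they also passed in WT cells. The dashed line marks equal change. Igfbp7 lies above 0 in tKO and below 0 in WT, and Il24, Il4 and Il13 lie far below the line near 0 in WT.

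The tKO cells at 2 ng/ml place these changes on a dose scale. At 2 ng/ml against 0 ng/ml, 1867 genes passed in tKO cells, or 18% of those tested (7.59% higher and 10.4% lower), and at 2 against 0.2 ng/ml 991 passed, or 9.57% (2.13% higher and 7.44% lower). These comparisons share the tKO libraries at 0 or at 0.2 ng/ml with the one above, so an error in a shared library moves both comparisons, and the values are given side by side only. Foxp3 went on rising with the dose, with 1.99 and 3.77 FPKM at 0 ng/ml, 40.2 and 30.9 FPKM at 0.2 ng/ml and 86.7 and 142 FPKM at 2 ng/ml in tKO cells, and the log2 change from 0.2 to 2 ng/ml was 1.62 ± 0.28 (adjusted p = 0.00546). Ctsw had 189 and 198 FPKM and Ldlrad4 47.2 and 42.7 FPKM at 2 ng/ml, with log2 changes against 0.2 ng/ml of 0.96 ± 0.19 and 1.46 ± 0.24 (adjusted p = 0.00976 and 0.00493). Klf2 and Nt5e stood higher again at 2 ng/ml, by 1.62 ± 0.24 and 1.71 ± 0.34 (adjusted p = 0.00415 and 0.00895). Itgae had 0.970 and 0.0101 FPKM at 0 ng/ml, 1.52 and 1.57 FPKM at 0.2 ng/ml and 57.8 and 48.7 FPKM at 2 ng/ml, a log2 change of 4.41 ± 0.36 over the second step (adjusted p = 5.90e-05).

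Other genes had no further change past the threshold or turned back. Maf had 23.5 and 22.4 FPKM and Nupr1 164 and 151 FPKM in tKO cells at 2 ng/ml, with log2 differences from 0.2 ng/ml of -0.16 ± 0.33 and -0.02 ± 0.34 (adjusted p = 0.802 and 0.986). Ccl20 had 50.1 and 78.6 FPKM at 0 ng/ml, 133 and 205 FPKM at 0.2 ng/ml and 83.3 and 72.4 FPKM at 2 ng/ml, and the fall at 2 against 0.2 ng/ml was of -1.08 ± 0.28 (adjusted p = 0.0284). Gata3 had 126 and 112 FPKM, 40.1 and 46.3 FPKM and 66.2 and 72.0 FPKM at the 3 doses, and it was higher at 2 than at 0.2 ng/ml by 0.67 ± 0.18 (adjusted p = 0.0372). Il4 was lower again at 2 ng/ml, at 0.254 and 0 FPKM (log2 change from 0.2 ng/ml -1.52 ± 0.38, adjusted p = 0.0265), as was Il9, at 88.6 and 158 FPKM (-2.07 ± 0.56, adjusted p = 0.036). Oxidative phosphorylation genes, with 0 of 42 past the threshold at 0.2 ng/ml, had 28 lower and 0 higher at 2 against 0 ng/ml, beside 10.4% of all genes lower. Myc and ribosome biogenesis genes had 17 of 28 lower and 0 higher in that comparison.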

How the data were processed

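RNA of day 4 cultures was extracted and amplified with a low-input cDNA kit that does not mark strand, per the labels' protocols, so reads of overlapping and antisense genes cannot be told apart. The authors deposited FPKM values per library, per the file headers. The submitters' processing notes name the mm9 build and the tools Trimmomatic, Cufflinks, Cuffdiff and TopHat; the sources used here do not give their versions or roles. The table holds no counts, so absolute depth is unknown and no count model or counting interval is given.

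Of 34309 entries, 18 exact duplicates and the 8483 without a symbol were left out, and FPKM values were summed per symbol (22783). Genes whose mean over the 12 libraries reached 1 FPKM (10354) entered a linear model in limma 3.58.1 (R 4.3.3) on log2(FPKM + 1). It had a coefficient for each of the 6 groups, which share 1 estimate of the spread, and used limma's trend option. An SE thus rests on the spread within all 6 groups, not on that of the compared libraries alone. A pseudocount of 1 understates changes of genes at low levels. P-values are two-sided and Benjamini-Hochberg adjusted over all genes tested. The script was tested on simulated data. Groups were taken from the labels. Contrasts were 0.2 minus 0 ng/ml in tKO and in WT, their difference, and 2 minus 0 and 2 minus 0.2 ng/ml in tKO. Alternatives were a pseudocount of 0.1, no filter, a filter of 5 FPKM, quantile scaling, array weights, only the compared libraries, a replicate block and leaving out each library. Of 694 genes on the lists, 688 were in the table. Some items are not reported here.

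The comparison, its genes and the gene lists were chosen with earlier results of these data known. Genes were named by rule: the 12 largest rises and falls among genes past the threshold without overlap and with a higher group mean of at least 5 FPKM; up to 5 called members with the smallest p per list; a set of lineage, oxygen and target genes; and the 8 most positive and most negative differences between genotypes. Rad50, Il17a and genes named only for their list were added after their values were seen. Deposited loci count their start from 0 and were moved to 1-based positions; a locus can span neighbouring genes. Promoter sequences are from RefSeq on GRCm38.p6, another build than that of the table.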

Additional observations from a re-analysis of the deposited data

Results flagged for a closer look

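Each gene in this section is 1 whose log2 change at 0.2 against 0 ng/ml TGF-b differed between tKO and WT cells by the test of the difference itself (limma, Benjamini-Hochberg adjusted p under 0.05). Values are tKO minus WT on the log2 scale. Of these 21 differences, 1, that of Igfbp7, was kept in every fit that leaves out 1 library. No explanation was tested.

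Among the genes with a higher change in tKO, the difference was 3.62 for Plac8, 3.60 for AA467197, 3.10 for Pdzk1ip1, 2.98 for Phf11a, 2.96 for Cd70, 2.96 for Ifitm3, 2.85 for Pfn2, 2.73 for Igfbp7, 1.58 for Id3 and 1.37 for Bnip3. Plac8 had 6.53 and 16.5 FPKM in tKO cells at 0.2 ng/ml and 2.74 and 3.25 FPKM in tKO cells at 0 ng/ml, against 0.675 and 0.283 FPKM and 6.76 and 4.07 FPKM at the same doses in WT cells. Pdzk1ip1 had 48.4 and 112 FPKM in tKO cells at 0.2 ng/ml and 18.4 and 34.8 FPKM in tKO cells at 0 ng/ml, against 10.2 and 10.6 FPKM and 28.0 and 39.6 FPKM at the same doses in WT cells.

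Among the genes with a lower change in tKO, the difference was -4.63 for Il24, -4.06 for Rnd3, -3.67 for Il4, -3.57 for Ajuba, -3.32 for Edn1, -3.07 for Gsn, -3.00 for Il13, -3.00 for Tnfrsf8, -1.77 for Casp6, -1.63 for Gata3 and -1.59 for Nfil3. For Il24, Il4, Il13, Edn1, Rnd3 and Ajuba every WT library at 0 or 0.2 ng/ml was listed below 1 FPKM. Tnfrsf8 was also low in WT cells, with 0.240 and 1.06 FPKM at 0.2 ng/ml and 0.612 and 0.250 FPKM at 0 ng/ml. For Casp6, Gata3, Nfil3 and Gsn the WT cells had measurable levels at both doses.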

How the results depend on the processing

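The number of genes called was sensitive to settings and to single libraries, and no scaling moved the median of all genes by more than 0.1. In tKO cells it was 257, and it came to 79 with array weights and 27 with only the 4 compared libraries in the fit. Leaving out 1 library gave 108 to 708 calls, with 708 without replicate 1 and 163 without replicate 2 of tKO at 0.2 ng/ml, and 108 and 121 without replicate 1 and replicate 2 of tKO at 0 ng/ml, and 163 without replicate 1 or without replicate 2 of tKO at 2 ng/ml. Without a filter 214 genes passed, 113 higher and 101 lower, a more even split. In WT cells the 165 calls came to 72 without a filter, 507 with array weights, 81 with only the compared libraries, and 31 to 237 without 1 library, moving by over 1.5 times without any 1 library of WT at 0 or 0.2 ng/ml or of tKO at 2 ng/ml. The 45 differences between genotypes came to 17 with a pseudocount of 0.1, 16 without a filter, 24 with array weights, 10 with only the compared libraries, and 1 to 110 without 1 library, with 39 or more only without a library of WT at 2 ng/ml or without replicate 1 of tKO at 0.2 ng/ml. The 52 calls among list members came to 29, 23 and 7 without a filter, with array weights and with only the compared libraries, and 28 to 85 without 1 library. Array weights give noisier libraries less weight. They were 0.463 for both tKO libraries at 0.2 ng/ml and 0.794 for both at 0 ng/ml, against 0.92 to 1.5 in the other groups. The main fit weighs all libraries alike, so its SE and adjusted p can be too small for the 2 tKO groups compared. The cause of the changes in count was not tested. Of the 71 named genes called in tKO cells, 31 were kept whichever library was left out, 38 with array weights, 38 without a filter, 19 with only the compared libraries, 56 with a pseudocount of 0.1 and 66 with quantile scaling.

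With the replicate number as a block, 413 genes passed in tKO cells, 283 in WT cells, 106 in the difference and 84 among list members, and 256 of the 257 calls were kept. The labels do not say that a number marks 1 animal. In tKO cells the number goes with the Y-linked transcripts and Xist at all 3 doses, so libraries of 1 number share a sex, and whether they share an animal is not given. Deviations of same-numbered tKO libraries correlated at 0.406 between 0.2 and 0 ng/ml, 0.105 between 2 and 0 ng/ml and 0.0908 between 2 and 0.2 ng/ml.

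Reversed signs occurred only for differences that did not pass. Over the fits that leave out 1 library, Egln1 ran from -0.0951 to 0.248, Egln2 from -0.743 to 0.0242, Egln3 from -0.186 to 0.153, Hif1a from -0.899 to 0.463, Il9 from -0.521 to 1.27, Ifng from -1.01 to 0.187, Slc2a1 from -0.272 to 0.0481 and Ifitm3 from -0.421 to 0.494. Quantile scaling turned Egln3 to 0.0114 and Bnip3 to -0.163. The number of libraries per group and the unknown depth limit the precision.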

Other observations

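Transcripts of the Y chromosome and Xist separated the tKO libraries by their number at all 3 doses. Eif2s3y had 45.5 and 0 FPKM in replicates 1 and 2 of tKO at 0.2 ng/ml and 43.6 and 0 FPKM in replicates 1 and 2 of tKO at 0 ng/ml. Xist had 0 and 4.26 FPKM in the same libraries at 0.2 ng/ml and 0 and 2.24 FPKM at 0 ng/ml. Each dose thus had 1 library with Y transcripts and 1 with Xist. The WT libraries had Xist and listed Eif2s3y at 0.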
